A study of Mus musculus with 7 samples.

Results

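Genes that carry sugars, monocarboxylates and related solutes across membranes were examined in sorted pancreatic beta cells of mice. The members are the genes whose platform symbol places them in the solute carrier families Slc2, Slc5 or Slc16, read at probe sets that name a single gene. The rule found 39 genes of 19938 in all, of which 12 are Slc2, 13 are Slc5 and 13 are Slc16 transporters. The remaining one, Slc2a4rg-ps, matches the pattern by name only, since it is a pseudogene of a Slc2a4 regulator and no transporter. The arrays measured RNA of YFP+ cells from P25 insulin-Cre; Rosa26-LSL-YFP mice on an ICR background, an outbred stock, and 1 mouse gave 1 array. In every mouse the insulin-driven Cre had switched on the reporter, so both groups carry both alleles. The groups were 3 mice weaned early at day 18 and 4 mice still suckling, all taken at day 25, with 2000 to 6000 cells sorted per mouse. The reporter marks cells in which the insulin promoter has been active, and the labels do not say how pure the sorted cells were.

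Facilitative transporters of the Slc2 family let hexoses move down their gradient, while Slc5 carriers couple sugars, inositol, vitamins or monocarboxylates to sodium. Slc16 carriers move lactate, pyruvate and other organic acids, often with a proton, and several have other substrates. Mouse beta cells are known for glucose entry through Slc2a2 (GLUT2), and for keeping Slc16a1 (MCT1) and lactate dehydrogenase A low, which keeps circulating pyruvate and lactate from acting as a fuel signal.

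For a first view of these genes, the stretches before 4 start sites are shown, taken from RefSeq on GRCm38.p6. Slc2a2 and Slc2a1 are the class I glucose transporters with both group means well above background, Slc5a1 had the smallest p of all members, and Slc16a1 is the carrier that beta cells are known to keep low. Each line holds the 250 bases before the start, 5′ to 3′ on the gene's strand. Capitals mark matches on either strand to 4 motifs: the GC box GGGCGG, the E-box CACGTG, the TATA box TATAAA and the HNF1 half-site GTTAAT.
Slc2a2, chr3:28697653-28697902, + strand: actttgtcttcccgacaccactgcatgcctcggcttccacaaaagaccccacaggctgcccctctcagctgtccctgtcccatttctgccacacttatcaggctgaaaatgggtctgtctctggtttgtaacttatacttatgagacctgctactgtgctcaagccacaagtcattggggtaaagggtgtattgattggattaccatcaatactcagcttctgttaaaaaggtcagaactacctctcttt
Slc2a1, chr4:119108495-119108744, + strand: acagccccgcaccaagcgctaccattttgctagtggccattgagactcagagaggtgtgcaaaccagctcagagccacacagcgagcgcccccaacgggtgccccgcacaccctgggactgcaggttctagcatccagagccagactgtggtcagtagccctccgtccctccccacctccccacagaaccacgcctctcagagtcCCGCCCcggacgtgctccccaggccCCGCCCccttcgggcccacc
Slc5a1, chr5:33103969-33104218, + strand: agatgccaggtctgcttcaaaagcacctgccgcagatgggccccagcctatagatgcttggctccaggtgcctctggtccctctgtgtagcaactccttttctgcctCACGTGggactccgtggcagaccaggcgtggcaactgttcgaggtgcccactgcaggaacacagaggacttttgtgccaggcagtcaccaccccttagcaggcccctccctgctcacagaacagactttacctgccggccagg
Slc16a1, chr3:104638414-104638663, + strand: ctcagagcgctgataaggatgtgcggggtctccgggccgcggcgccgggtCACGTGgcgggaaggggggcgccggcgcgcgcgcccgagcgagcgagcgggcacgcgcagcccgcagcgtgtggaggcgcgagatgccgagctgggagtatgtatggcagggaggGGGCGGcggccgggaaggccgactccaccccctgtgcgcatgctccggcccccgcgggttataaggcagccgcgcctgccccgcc

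The Slc2a2 stretch holds none of the 4 motifs, and 47.2% of its bases are G or C. The Slc2a1 stretch holds 2 GC boxes, 45 and 20 bases before the start, and is 66.4% GC. The Slc5a1 stretch holds an E-box 143 bases before the start, and the Slc16a1 stretch holds a GC box and an E-box in 76.4% GC. RefSeq start sites were matched for 29 of the 39 members, with 31 promoters. A member counts once, when any of its promoters has the motif, while shares of all promoters count each promoter. For the median GC content, the highest value of each member was taken. A GC box was found in 13 of the 29 (44.8%), against 32.7% of all 32851 promoters of the same length. It was found in 11 of 21 matched members with a group mean above background and in 2 of 8 with both group means at background. The median GC content was 60.8% in the former, 49.6% in the latter and 52.4% over all promoters. Matches to the TATA box letters were found in 3 of the 29 (10.3%), near the 12.4% of all promoters. These members were Slc16a4, Slc5a4a and Slc5a7, all with both group means at background. Their matches lie 187 to 198 bases before the start. E-boxes were found in 3 of the 29 and HNF1 half-sites in 2, against 6.02% and 6.43% of all promoters. These matches describe the letters in this window.

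The deposited probe set values were taken to log2, and all levels below are log2 intensities. As a background level served the 95th percentile of 1027 olfactory receptor genes, which are not expected in these cells, at 3.27. A probe set is called at background in a group when its group mean lies at or under that level. Of the 39 members, 27 had at least 1 group mean above it and 12 had both at it. All 8 beta-cell markers looked for gave signal above background, the transcription factor gene Mafa the dimmest at 5.57 to 6.06, and the mean of these markers was 9.64 to 9.81 for weaned and 9.65 to 9.80 for suckling mice. Signal for Gcg and Sst, hormones of alpha and delta cells, was also strong, with suckling means of 12.1 and 12.0. Among the other measured markers of alpha, delta and pancreatic polypeptide cells, suckling means were 11.2 (Ppy), 10.4 (Ttr) and 9.17 (Rbp4). They were lower for Irx2 (5.20), Irx1 (4.13), Ghsr (4.12) and Hhex (3.77). Suckling means of beta-cell markers were 12.5 (Iapp), 12.1 (G6pc2), 11.0 (Slc30a8) and 10.5 (Ucn3). The remaining beta-cell markers were lower, at 8.76 (Pdx1), 8.55 (Nkx6-1), 8.27 (Ins2) and 6.01 (Mafa). Acinar markers varied most between arrays. The mean of the 13 measured of 18 acinar markers was 3.96, 3.77 and 6.35 on weaned replicates 4, 5 and 12. It was 8.29, 8.11, 4.28 and 5.22 on suckling replicates 2, 9, 11 and 12. Their summed linear intensity ran from 192 to 1390 on weaned and from 304 to 4938 on suckling arrays, and all 13 had a mean above background over the arrays. Duct markers were above background, with suckling means of 8.14 (Krt7), 7.31 (Cftr), 5.26 (Krt19) and 4.21 (Sox9). Krt19 ran from 3.60 on suckling replicate 2 to 6.84 on suckling replicate 12, unlike the acinar order. Endothelial, stellate and leukocyte markers lay close to background, with Pecam1, Cdh5, Kdr, Tek, Pdgfra, Pdgfrb, Dcn, Ptprc, Adgre1 and Csf1r at it. In sorted bulk cells, fewer cells of a type and less RNA per cell cannot be told apart. The array descriptions carry a code that differs between the groups, and whatever it stands for cannot be told apart from weaning.

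**Figure D1:**
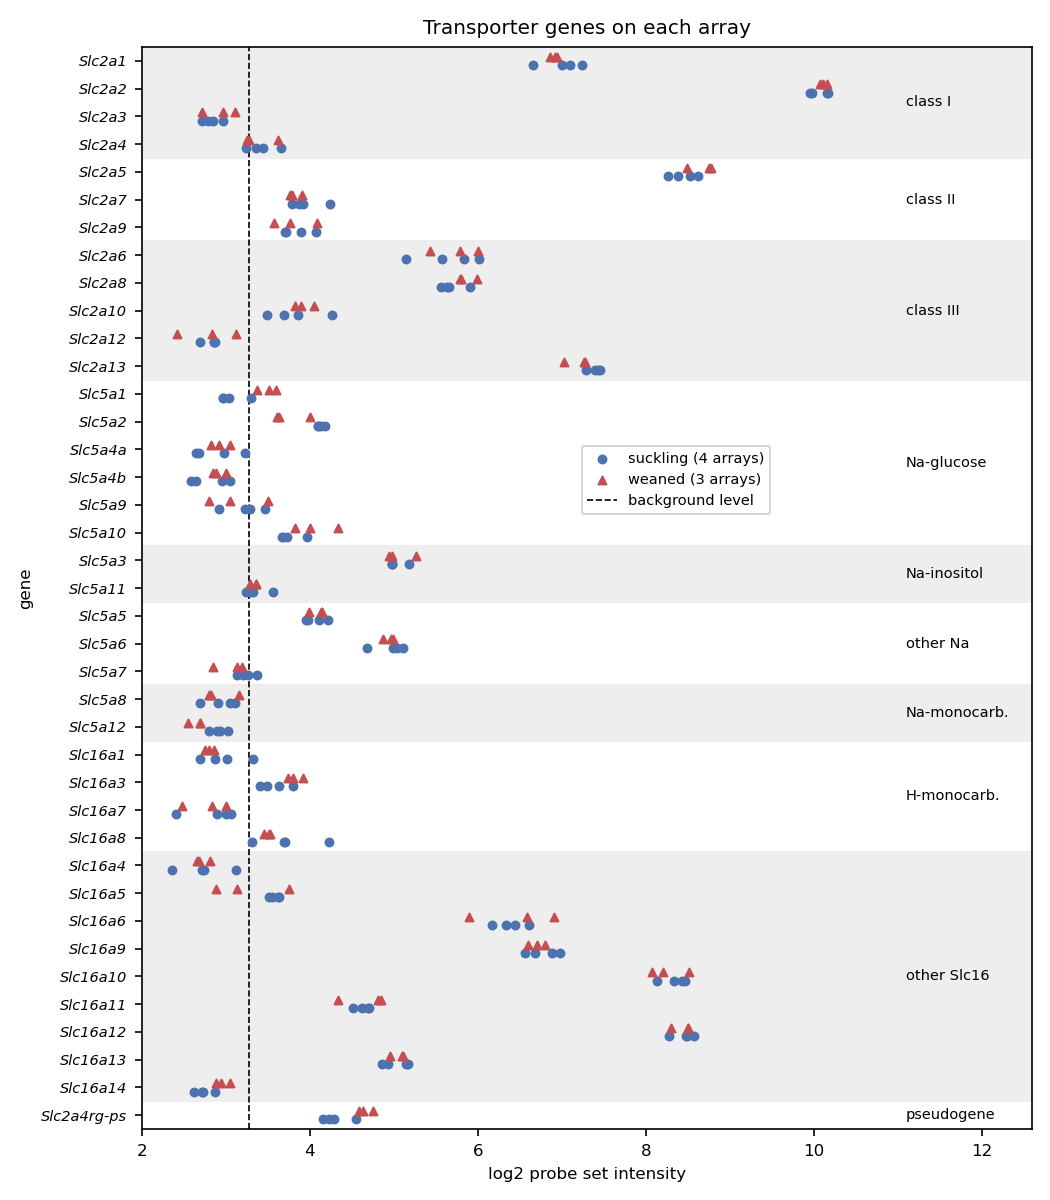
Log2 probe set intensity (x axis) of each of the 39 genes (y axis, ordered by role) on the 4 suckling arrays (circles) and the 3 weaned arrays (triangles). The dashed line is the background level of 3.27, and both groups of Slc2a2 lie together near 10.1.

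Comparing weaned with suckling mice asks whether early weaning shifts transporter transcripts in beta cells of the same age. No member passed an adjusted p of 0.05 (limma, Benjamini-Hochberg over all 19938 genes), where 0.015% of all genes did, and the smallest adjusted p was 0.518. An unadjusted p under 0.05 was found for 4 members (10.3%) and for 3 of the 38 transporters (7.89%), against 7.58% of all genes. Of the 4, Slc5a1 and Slc2a4rg-ps had higher means in weaned mice, against 4.39% of all genes in that direction. Slc5a2 and Slc5a12 had lower means, against 3.19%. The groups of arrays did not overlap for 6 members (15.4%), against 7.32% of all genes, with 3 higher in weaned mice (3.9% of all genes) and 3 lower (3.43%). At these counts the shares are a few genes from those of all genes. The median log2 difference, weaned minus suckling, was -0.014 over members and 0.00047 over all genes, and 18 members had a higher and 21 a lower mean in weaned mice. No member differed by more than 1.5-fold, where 272 of all 19938 genes did. For 33 members the 95% interval of the difference lay wholly within 1.5-fold either way, as for 15192 of all genes. These were 21 of the 27 members above background and all 12 at background. The other 6, Slc5a1, Slc5a2, Slc5a10, Slc16a5, Slc16a8 and Slc2a4rg-ps, have intervals that reach beyond it.

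**Figure D2:**
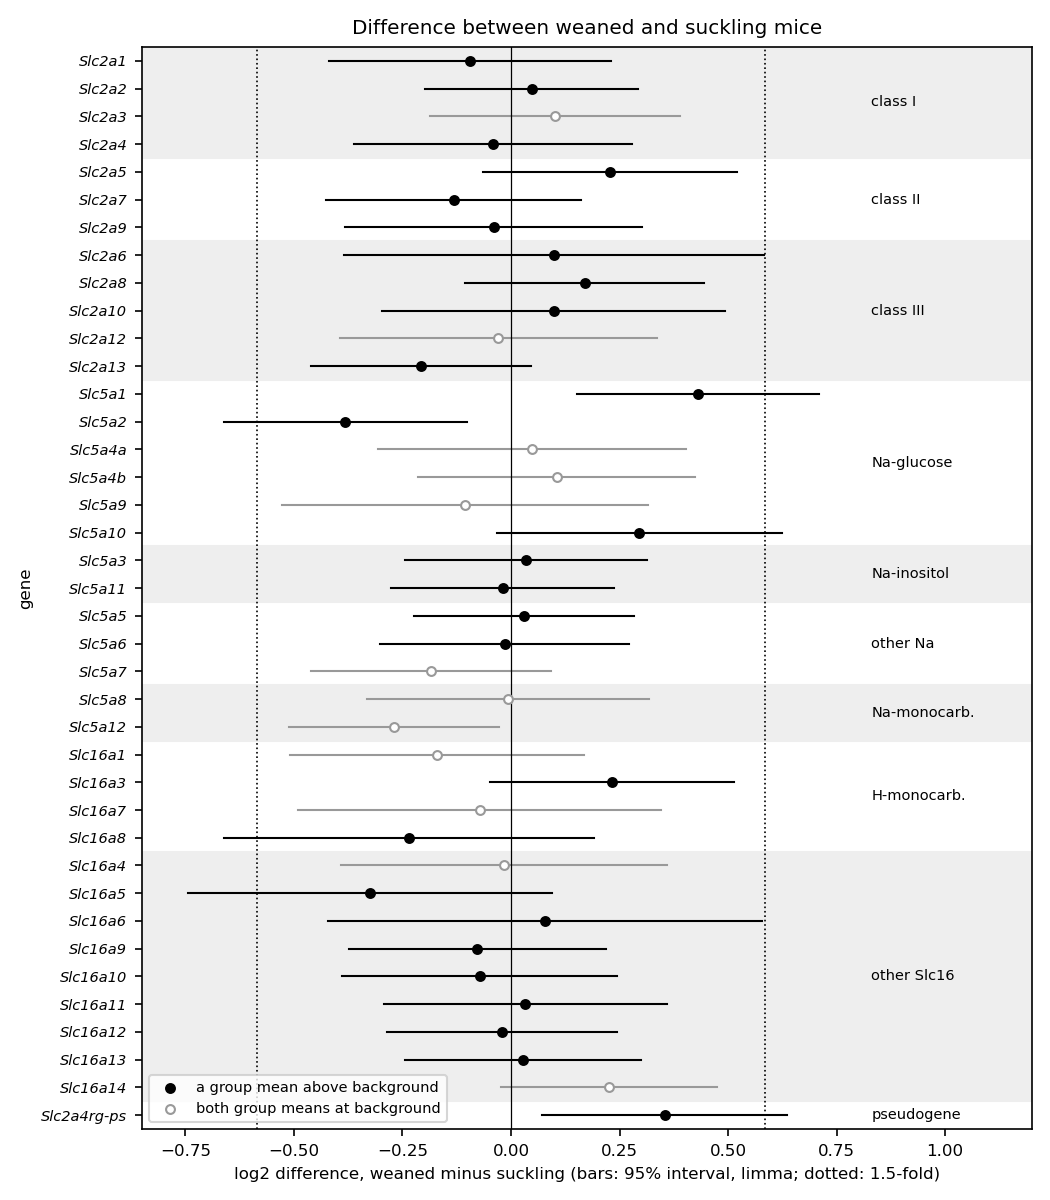
Log2 difference, weaned minus suckling (x axis), for each gene (y axis, ordered by role), with the 95% interval from limma as a bar. Open points are genes with both group means at background and dotted lines mark 1.5-fold; the intervals of 33 of 39 genes lie between them.

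Slc2a2, the glucose transporter of mouse beta cells, was at 10.11, 10.15 and 10.07 on weaned replicates 4, 5 and 12. It was at 10.16, 9.97, 9.96 and 10.17 on suckling replicates 2, 9, 11 and 12. The weaned arrays lie inside the suckling range. The means were 10.11 ± 0.04 (SD, n = 3) and 10.07 ± 0.12 (n = 4), a ratio of weaned to suckling of 1.03 with a 95% interval of 0.872 to 1.22 (adjusted p = 0.948, limma). A difference beyond these bounds lies outside the interval. Slc2a2 also varied little within groups, with a residual SD of 0.093, which 7.46% of all genes matched or undercut, where the median gene had 0.19.

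Slc2a1 (GLUT1), a transporter for basal glucose uptake in many cells, was above background on every array. Its weaned values were 6.85, 6.94 and 6.92 and its suckling values 6.66, 7.24, 7.01 and 7.09. The weaned arrays again fall inside the suckling range. Its lowest array is suckling replicate 2 and its highest suckling replicate 9, and these arrays carry the most acinar signal. The difference was -0.10 (SE 0.14, 95% interval -0.42 to 0.23). Slc2a4 (GLUT4), the insulin-responsive transporter of muscle and fat, lay just above background at 3.25, 3.27 and 3.62 on weaned and 3.36, 3.25, 3.66 and 3.44 on suckling arrays. Its difference of -0.04 (SE 0.14) is small beside the spread of either group. Slc2a3 (GLUT3), known from neurons, had both group means at background, with 2.71 to 3.11 on weaned and 2.71 to 2.96 on suckling arrays. None of these 4 class I transporters had groups that separated.

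Among the class II transporters, Slc2a5, which carries fructose, gave clear signal. Its weaned values were 8.75, 8.78 and 8.50, and its suckling values 8.26, 8.62, 8.53 and 8.39. The weaned arrays with the least acinar signal, replicates 4 and 5, are the highest of the 7, and weaned replicate 12 lies inside the suckling range. The difference was 0.23 (SE 0.13, 95% interval -0.07 to 0.52, adjusted p = 0.723, limma), and 0.16 with the acinar marker mean as a covariate. Its chromosomal neighbour Slc2a7, another hexose transporter, did not share this order, with 3.77, 3.91 and 3.79 on weaned and 3.88, 3.92, 4.24 and 3.79 on suckling arrays. Slc2a9, a urate transporter, was at 3.57, 4.08 and 3.76 on weaned and 3.71, 4.07, 3.90 and 3.70 on suckling arrays, with a difference of -0.04 (SE 0.15).

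Of the class III transporters, Slc2a13, which moves myo-inositol with protons, was the Slc2 gene whose groups did not overlap. Weaned values were 7.03, 7.26 and 7.27, below the suckling values of 7.46, 7.40, 7.29 and 7.43. The gap between the groups is narrow, since weaned replicate 12 and suckling replicate 11 differ by less than either group's SD. The difference was -0.21 (SE 0.11, 95% interval -0.46 to 0.05, adjusted p = 0.706, limma). With the acinar level as a covariate it was -0.15, and without suckling replicates 2 and 9, the arrays richest in acinar signal, it was -0.17. Without weaned replicate 4, the lowest array, it was -0.13. Slc2a8 (GLUT8), held on intracellular membranes, was at 5.78, 5.80 and 5.99 on weaned and 5.56, 5.65, 5.90 and 5.64 on suckling arrays (0.17, SE 0.12). Here only suckling replicate 11 reaches the weaned range. Slc2a6 was among the most variable members within groups (residual SD 0.34), from 5.14 on suckling replicate 2 to 6.02 on suckling replicate 9. Slc2a10 (GLUT10), known from arterial tortuosity syndrome, ran from 3.49 to 4.26 on suckling arrays and from 3.82 to 4.05 on weaned arrays. Its highest array was suckling replicate 2, the array with the highest mean of acinar markers. The difference of 0.10 became 0.26 with the acinar covariate (unadjusted p = 0.19, limma). Slc2a12 was at background in both groups.

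The sodium-glucose cotransporters held both members with the smallest p values, and these pointed in opposite directions. Slc5a1 (SGLT1), the glucose and galactose carrier of intestinal absorption, was at 3.37, 3.51 and 3.59 on weaned arrays. On suckling arrays it was at 3.29, 3.03, 2.96 and 2.96. Every weaned array is above every suckling array, but the suckling mean of 3.06 is at background and the weaned mean of 3.49 is only just above it. The difference was 0.43 (SE 0.12, 95% interval 0.15 to 0.71), a ratio of 1.35, and its adjusted p was 0.518 (limma). The 95% interval of the ratio ran from 1.11 to 1.64, and the suckling level it is set against is not above background. Suckling replicate 2, richest in acinar signal, is the suckling array nearest to the weaned ones. With the acinar covariate the difference was 0.53, and without suckling replicates 2 and 9 it was also 0.53.

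Slc5a2 (SGLT2), which recovers filtered glucose in the kidney, was at 3.60, 3.64 and 4.00 on weaned arrays. On suckling arrays it was at 4.18, 4.10, 4.14 and 4.09, a tight cluster above all weaned values. The difference was -0.38 (SE 0.12, 95% interval -0.66 to -0.10, adjusted p = 0.565, limma), a ratio of 0.767. The weaned array nearest the suckling group is replicate 12, which also had the highest acinar level of the weaned mice. Within the suckling group, Slc5a2 stayed between 4.09 and 4.18 while acinar means ran from 4.28 to 8.29. The unadjusted p exceeded 0.05 with the acinar covariate (-0.31). It also did so without suckling replicates 2 and 9 (-0.37), and any part of acinar RNA in the difference was not tested. In RefSeq, Slc5a2 overlaps the gene Rusf1, whose part in the signal was not tested. Slc5a10 (SGLT5), a sugar carrier of the kidney, was at 4.00, 4.34 and 3.82 on weaned and 3.68, 3.96, 3.73 and 3.67 on suckling arrays. Its difference was 0.30 (SE 0.15), with overlap through suckling replicate 9. Without weaned replicate 5, the highest array, it was 0.15. Leaving out weaned replicate 12 gave an unadjusted p of 0.026, and leaving out suckling replicate 9 one of 0.044.

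Slc5a4a and Slc5a4b, neighbouring copies of a glucose-sensing relative, and Slc5a9 were at background in both groups. In both copies suckling replicates 2 and 9 were above suckling replicates 11 and 12. Slc5a4a had 3.22 and 2.98 against 2.67 and 2.64, and Slc5a4b had 3.05 and 2.95 against 2.58 and 2.64. The acinar marker means follow the same order, 8.29 and 8.11 against 4.28 and 5.22, but weaned replicates 4 and 5 had acinar means of 3.96 and 3.77 with Slc5a4a at 2.82 and 3.04. With the acinar covariate the differences of 0.05 and 0.11 became 0.21 and 0.28, with no unadjusted p under 0.05 (limma). Of all 16 refits of Slc5a4b, 1 passed that level (unadjusted p = 0.046, limma). Signal can be shared between the probe sets of paralogous copies.

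**Figure D3:**
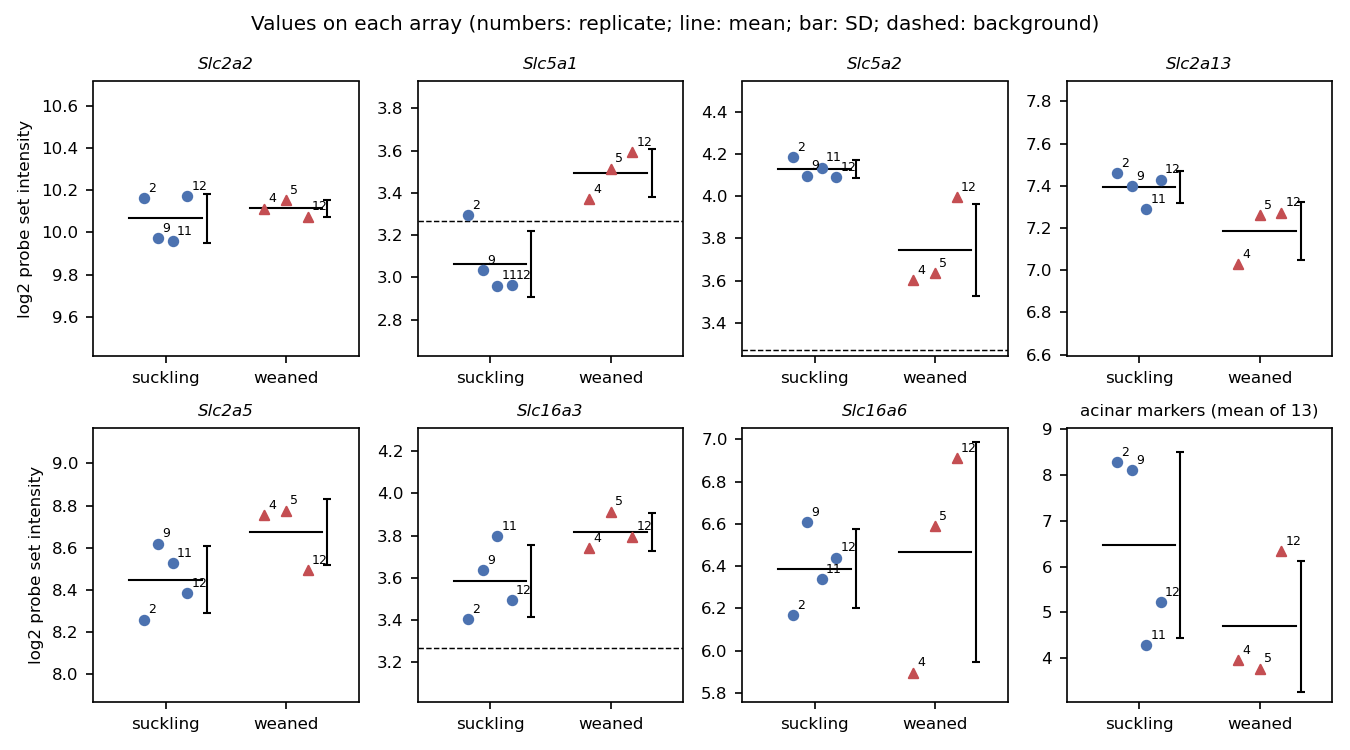
Log2 probe set intensity (y axis, the same span in each gene's panel) of 7 genes, and the mean of 13 acinar markers on a wider axis, on suckling (circles) and weaned (triangles) arrays, with replicate numbers, group mean and SD. Slc2a2 overlaps between groups, while Slc5a1, Slc5a2 and Slc2a13 do not; suckling replicates 2 and 9 carry the most acinar signal.

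The inositol carriers showed little movement. Slc5a3 (SMIT1), which loads cells with myo-inositol under osmotic load, was at 5.27, 4.97 and 4.94 on weaned and 4.97, 5.18, 4.97 and 4.97 on suckling arrays. Of its 7 values, 4 are the same number in the deposited file, so its spread is not a usual replicate spread. Slc5a3 also overlaps Mrps6 in RefSeq. Its difference was 0.03 (SE 0.12). Slc5a11 (SMIT2) lay just above background, from 3.29 to 3.35 on weaned and 3.24 to 3.56 on suckling arrays. Of the carriers with other cargo, Slc5a6, which imports biotin and pantothenate, was at 4.87, 4.96 and 4.99 on weaned and 5.11, 4.68, 5.04 and 4.99 on suckling arrays (-0.01, SE 0.13). The iodide carrier gene Slc5a5 had a difference of 0.03 (SE 0.11), and the choline carrier gene Slc5a7 was at background in both groups.

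Monocarboxylate carriers coupled to sodium were at background in both groups. Slc5a12, a lactate carrier, was at 2.69, 2.69 and 2.55 on weaned and 3.02, 2.89, 2.80 and 2.93 on suckling arrays. The groups do not overlap (-0.27, SE 0.11, adjusted p = 0.634, limma), but with both means at background no direction of the transcript is read from this. Slc5a8 (SMCT1) differed by -0.01 (SE 0.14).

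Among the proton-linked lactate and pyruvate carriers, Slc16a1 (MCT1) was at 2.79, 2.75 and 2.86 on weaned arrays. It was at 2.69, 3.01, 3.32 and 2.87 on suckling arrays, and both group means are at background. The high-affinity pyruvate carrier gene Slc16a7 (MCT2) was at background as well, at 2.83, 3.0 and 2.48 on weaned and 2.90, 2.40, 3.0 and 3.06 on suckling arrays. Slc16a3 (MCT4), the lactate exporter of glycolytic cells, lay above background at 3.74, 3.91 and 3.80 on weaned and 3.41, 3.64, 3.80 and 3.49 on suckling arrays. Weaned values were high in the suckling range or above it, with overlap through suckling replicate 11, and the difference was 0.23 (SE 0.12, 95% interval -0.05 to 0.51, adjusted p = 0.7, limma). Slc16a8 (MCT3), known from retinal pigment epithelium, had a single high array, suckling replicate 2 at 4.23, where the other 6 arrays lay between 3.32 and 3.70.

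The remaining Slc16 genes included several with clear signal and no separation. Slc16a10 (TAT1), a carrier of aromatic amino acids, was at 8.52, 8.21 and 8.07 on weaned and 8.13, 8.33, 8.43 and 8.46 on suckling arrays (-0.07, SE 0.14). The creatine carrier gene Slc16a12 ran from 8.30 to 8.50 on weaned and from 8.27 to 8.57 on suckling arrays (-0.02, SE 0.12). Slc16a6 was the most variable member within groups (residual SD 0.36). Its weaned values of 5.90 and 6.91 lay on either side of the suckling range of 6.17 to 6.61, and 6.59 lay inside it. Its interval, a ratio of 0.747 to 1.49, is accordingly wide, and the gene overlaps Arsg in RefSeq. Slc16a9 had 2 probe sets. The brighter ran from 6.59 to 6.81 on weaned and from 6.56 to 6.98 on suckling arrays (-0.08, SE 0.13), and the dimmer, with both means at background, differed by 0.28 in the other direction. The neighbouring genes Slc16a11 and Slc16a13 differed by 0.03 each (SE 0.14 and 0.12). Slc16a5 was at 2.88, 3.13 and 3.75 on weaned arrays against 3.51 to 3.64 on suckling arrays. Of its weaned arrays, only replicate 12, the one with the most acinar signal, reached the suckling level. The suckling arrays did not follow that order. Their highest value was on replicate 11, with the least acinar signal of that group, and their lowest on replicate 9. The weaned mean of 3.26 is at background, so the fitted difference of -0.33 (SE 0.19) is no measured size. It was -0.21 with the acinar covariate, -0.14 without weaned replicate 4 and -0.57 without weaned replicate 12, where its unadjusted p was 0.0019. Slc16a4 and Slc16a14 were at background in both groups. The Slc16a14 arrays did not overlap, at 2.88, 2.94 and 3.05 on weaned and 2.62, 2.87, 2.71 and 2.73 on suckling arrays, and no direction is read from levels this low.

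The pseudogene Slc2a4rg-ps was at 4.64, 4.75 and 4.59 on weaned and 4.15, 4.28, 4.55 and 4.23 on suckling arrays. The groups do not overlap, although suckling replicate 11 comes close (0.35, SE 0.12, 95% interval 0.07 to 0.64, adjusted p = 0.6, limma). With the acinar covariate the difference was 0.25 and its unadjusted p no longer passed 0.05. The gene overlaps Zbtb46 in RefSeq.

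Genes that work with these carriers were read from a list of 39 partners, glucose-handling enzymes, trafficking factors and regulators, of which 35 were measured. None passed an adjusted p of 0.05 (limma, smallest adjusted p 0.577). Of them, 4 had an unadjusted p under 0.05, all with higher means in weaned mice, against 4.39% of all genes in that direction. The median difference of the list was 0.02. Tbc1d4 (AS160), a brake on Slc2a4 trafficking, was at 5.10, 4.97 and 5.01 on weaned and 4.85, 4.74, 4.33 and 4.58 on suckling arrays (0.40, SE 0.14). Aspscr1 (TUG), a tether of Slc2a4 vesicles, was at 6.86, 6.93 and 6.86 on weaned and 6.68, 6.63, 6.52 and 6.45 on suckling arrays (0.31, SE 0.11). In both genes every weaned array is above every suckling array.

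Ldhb, a lactate dehydrogenase subunit, was at 5.87, 5.20 and 5.16 on weaned and 4.89, 4.93, 5.10 and 4.98 on suckling arrays (0.43, SE 0.17). That difference rests largely on weaned replicate 4, without which it was 0.20. Pdx1, a transcription factor known to act on Slc2a2, was at 9.13, 9.12 and 9.04 on weaned and 8.79, 8.68, 9.04 and 8.54 on suckling arrays (0.33, SE 0.13). With the acinar covariate the Pdx1 difference was 0.27, and its unadjusted p exceeded 0.05 there and in 7 other refits of 18, without 1 or 2 arrays. Suckling replicate 11 reaches the weaned range of Pdx1. Bsg (basigin), the chaperone of Slc16a1 and Slc16a3, differed by 0.06 (SE 0.12), and Emb (embigin), the chaperone of Slc16a7, by -0.12 (SE 0.13). The glucose-induced gene Txnip, which restrains glucose uptake, differed by 0.13 (SE 0.21), Ldha by -0.21 (SE 0.22; -0.01 with the acinar covariate) and the mitochondrial pyruvate carrier gene Mpc1 by 0.02 (SE 0.13). Mpc2 was not analysed here.

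**Figure D4:**
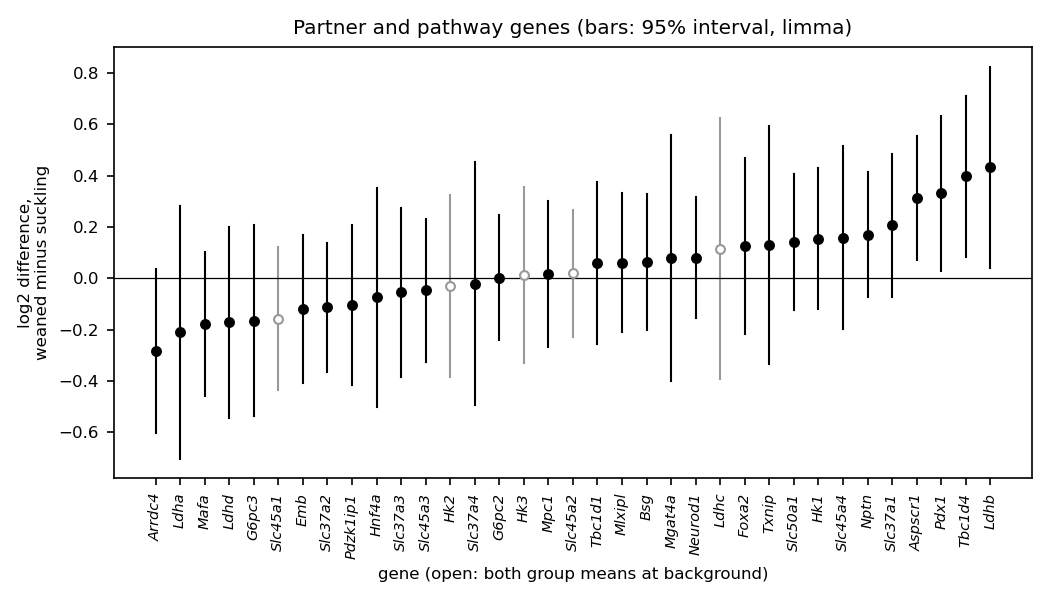
Log2 difference, weaned minus suckling (y axis), for the 35 measured partner and pathway genes (x axis, ordered by difference), with the 95% interval from limma as a bar. The intervals of Aspscr1, Pdx1, Tbc1d4 and Ldhb lie above 0, and those of the other genes include it.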

How the data were processed

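The authors deposited probe set intensity values, 1 column per array. The submitters' processing notes name RMA and Partek 6.6 without order or settings. RNA was amplified with a pico-scale kit before labelling, per the labels' protocols. The values run from 1.45 to 12755, a linear scale, and were converted to log2. RMA shrinks differences of dim probe sets. Of 35556 probe sets 21789 carry 1 gene symbol, 1621 several and 12146 none, and 21698 were matched by gene ID to RefSeq (GRCm38.p6), used for names, neighbours and promoters. The brightest probe set stood for each of 19938 genes. All 7 columns were used and 0 left out.

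Groups were compared with limma 3.58.1 (lmFit, eBayes, R 4.3.3) on log2 values, two-sided and without covariate. P-values were adjusted by Benjamini-Hochberg across all genes, with a threshold of 0.05. The script was tested on simulated data. The number of arrays, 3 and 4, and the spread within groups limit the precision, and the median SE over all genes was 0.14. Each mouse was a biological repetition, per the labels.

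Members and lists were chosen with earlier results of these data known. Values on every array are given for members with an unadjusted p under 0.05 or groups that do not overlap and for a fixed set of carriers, and some other members are added for their spread. Named partners are those with an unadjusted p under 0.05 and 7 fixed genes, some of which are not reported here. No list was tested. A planned comparison of protein sequences was not run. Alternatives changed the normalization, variance model, filter on dim genes, probe sets, array weights, covariates, threshold and arrays used.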

Additional observations from a re-analysis of the deposited data

Results flagged for a closer look

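Each member was checked for a suckling array far from the other 3, by the gap to the nearest array over the group's range, against Dixon's 95% critical value, which chance passes in about 1 in 20 groups. Of 39 members, 2 passed. Slc2a12 was at 2.69 on suckling replicate 2 and at 2.85 to 2.87 on the other suckling arrays, all at background. Slc5a3 was at 5.18 on suckling replicate 9, and the other 3 suckling arrays hold the same value, 4.97, so any departure would pass.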

How the results depend on the processing

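No member passed an adjusted p of 0.05 under any of the 19 alternatives run, an adjusted threshold of 0.1 included, and the smallest adjusted p of a member was 0.335 with quantile normalization (limma). The count at an unadjusted p under 0.05 was 4, ran from 3 to 5 with 1 array left out, and was 1 with the acinar covariate, 1 of the 15 members left by a filter at the median level, and 2 without suckling replicates 2 and 9. The filter at the median level moved the median difference from -0.014 to 0.033, where all genes left had 0.038. Leaving out single arrays gave medians of -0.025 to 0.020, so its sign is not settled.

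For the 18 members with an unadjusted p under 0.05, groups that do not overlap or a place in the fixed set, 309 refits gave 293 with the same side of 0.05 and, where past it, the same direction, 13 that lost it and 3 that gained it, with 0 reversals among those past it. Slc5a1, left out by the filter at the median level and with a suckling mean at background, kept it in all 17 (0.38 to 0.53). Slc5a12 lost it in 8 of 16, Slc2a4rg-ps in 3 of 18 and Slc5a2 in 2 of 17. Differences of Slc16a10, Slc16a7, Slc2a4, Slc2a9, Slc5a3 and Slc5a6 changed sign with single arrays left out. For the other 21 members 359 refits, added after the data were seen, gave 4 gains, in Slc16a5 and Slc5a4b once each and in Slc5a10, and 0 losses. For the 9 partner genes 161 refits, also added then, gave 18 losses, 8 of 18 refits in Pdx1, 7 in Ldhb, 2 in Tbc1d4 and 1 in Aspscr1. The cause was not tested. Dim probe sets limit what can be read for the 12 members at background. No paired analysis was run, since the sample titles give replicate numbers but state no pairs.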
